A study of Mus musculus with 18 samples.

Results

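Ion channels of the muscle membrane were followed in primary mouse myotubes after dystrophin knockdown. The members were all probes whose annotated gene symbol is *Kcnc1*, *Kcnc4*, *Kcna7*, *Kcnma1*, *Kcnn3*, *Kcnj2*, *Kcnj11* or *Clcn1*. This rule found 12 probes of 8 genes among the 46632 probes of the array. Of the 8 genes, 7 encode potassium channels and 1, *Clcn1*, a chloride channel, and no sodium channel gene is among them. The rule itself used gene symbols only, but these genes were picked with earlier results of the same data known, so the number of members that passed a test is a description and no independent evidence.

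The myotubes were grown from limb muscle of C57BL/10 neonates aged 3 to 5 days. The groups were 7 cultures given an siRNA against dystrophin, 7 cultures given an siRNA against GL2 (firefly luciferase, a transcript that mouse cells do not make), and 4 cultures left untreated. The siRNAs were added on days 2 and 4, the medium was changed to differentiation medium on day 4, and RNA was taken on day 6, after 48 hours of differentiation. Each culture gave RNA for 1 array, of the Illumina design MouseWG-6 v1.1, and muscle cells of different mice had been mixed on each of 4 occasions, so the cultures of an occasion shared 1 mixture and the p-values measure the spread between these cultures. RNA came from whole cultures, in which fewer cells of a type and less RNA per cell cannot be told apart.

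A muscle fibre fires when sodium enters and repolarizes when potassium leaves through voltage-gated channels. Inward rectifier potassium channels and the muscle chloride channel hold the membrane near its resting potential between spikes, and calcium-activated potassium channels couple the potassium current to the calcium inside the cell. Several of these channels are acquired late in fibre maturation, and others are typical of immature or denervated muscle.

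Levels are given as normalized log2 intensities, the bead signal after background correction and quantile normalization. A probe was taken as detected on an array at a detection p under 0.05. Of the 12 member probes, 10 passed this limit on at least 4 arrays, 5 passed it on each of the 18 and 2 never did. At a detection p under 0.01 these counts were 5, 3 and 5. The probes detected on all 18 arrays were 1 probe each of *Kcnc1*, *Kcnc4*, *Kcnma1*, *Kcnn3* and *Clcn1*. The probes detected on no array were the only *Kcna7* probe and another probe of *Kcnc1*. Over the whole array 53.9% of the probes were detected on no array, and between 17551 and 18530 were detected per array.

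Changes were tested with limma on all 18 arrays, and a probe passed where its p, adjusted after Benjamini-Hochberg for all 46632 probes, was under 0.05. In dystrophin siRNA against untreated myotubes, 6 of the 12 member probes passed, where 0.907% of all probes did. Of these 6, 2 were higher, where 0.277% of all probes were, and 4 were lower, where 0.63% were. In GL2 siRNA against untreated myotubes, 3 member probes passed (background 0.733%). None was higher (background 0.339%) and all 3 were lower (background 0.395%), and of the 7 member probes with an unadjusted p under 0.05 in the limma fit only *Kcnc1* ILMN_2717814 was higher. Of all 46632 probes, 5155 had an unadjusted p under 0.05 there. In dystrophin siRNA against GL2 siRNA myotubes, 6 member probes passed (background 3.76%), with 4 higher (background 1.6%) and 2 lower (background 2.16%). Among the 10 member probes detected on at least 4 arrays, 5, 3 and 5 passed in these 3 comparisons. Of all probes detected on at least 4 arrays, 2.01%, 1.65% and 8.27% did. In each comparison 1 of the probes that passed was detected in neither group, *Kcna7* in both comparisons of the dystrophin siRNA and 1 probe of *Kcnma1* in GL2 siRNA against untreated myotubes. The median change of the 12 probes was -0.41, -0.34 and 0.16 in these 3 comparisons, beside 0.01, 0.01 and 0.00 over all probes. The first and second comparisons share the 4 untreated arrays.

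**Figure D1:**
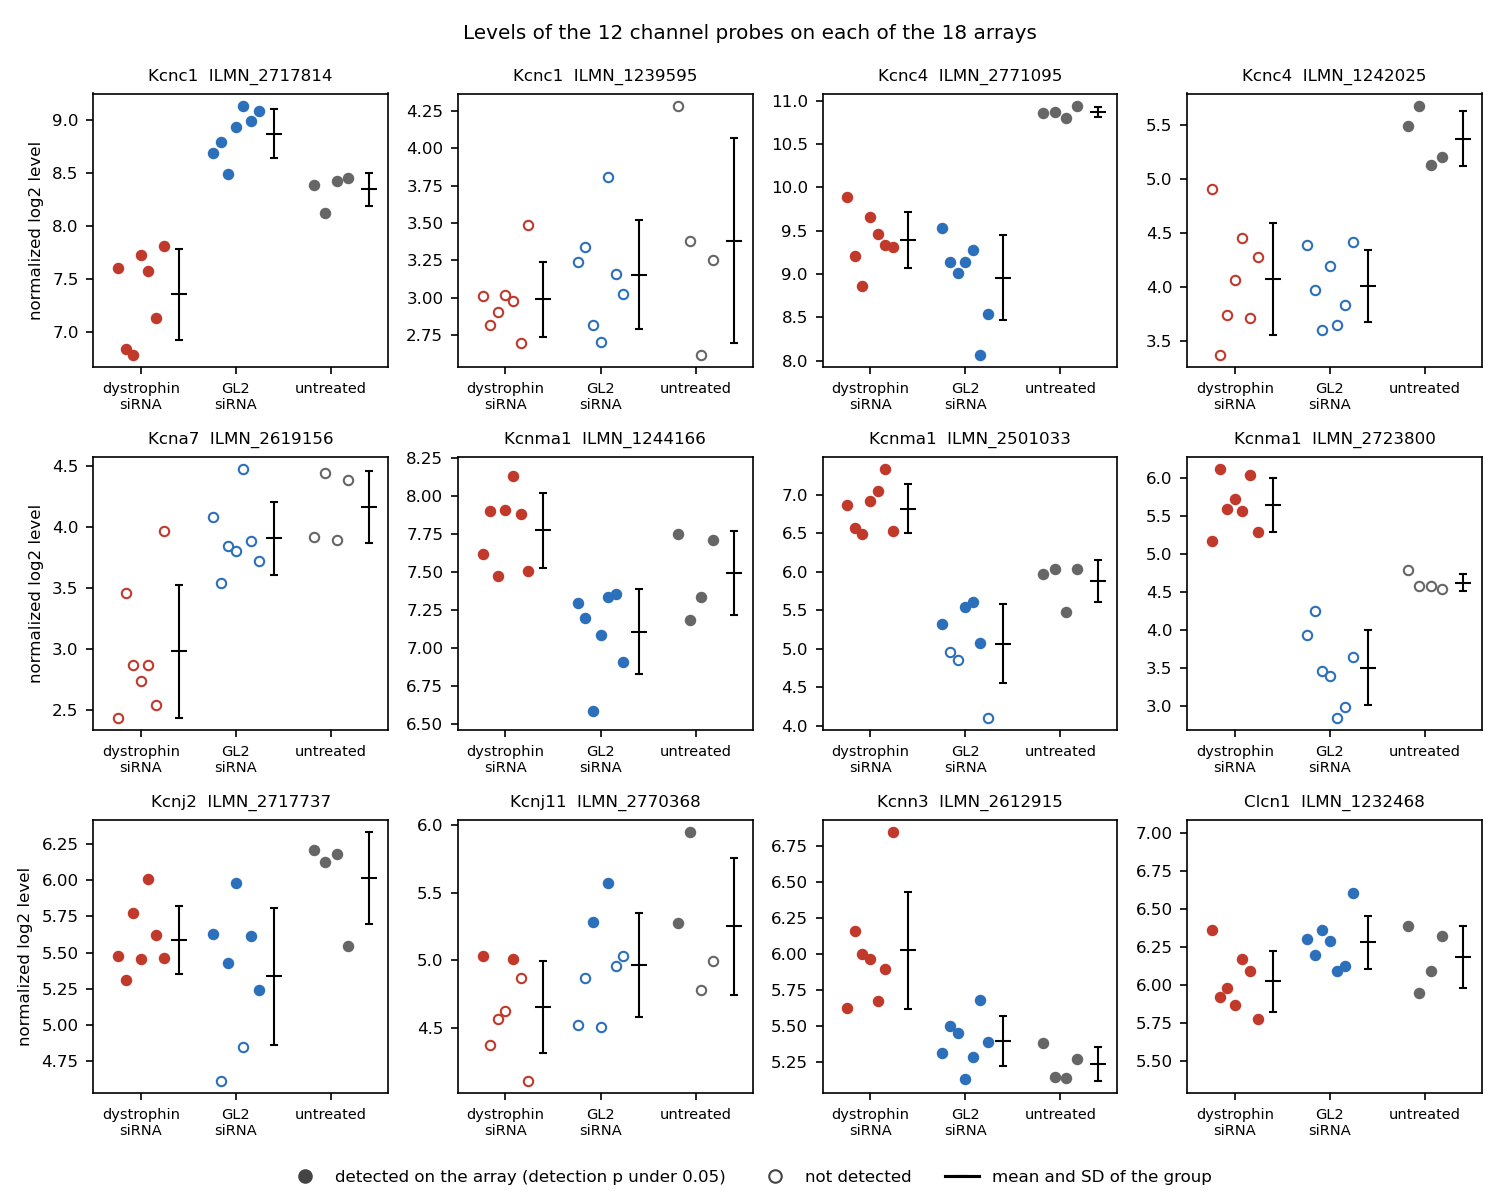
Normalized log2 level (vertical axis) of each of the 12 channel probes on each of the 18 arrays, in dystrophin siRNA, GL2 siRNA and untreated myotubes. Each panel has its own axis, filled points were detected, open points were not, and the bar beside each group gives its mean and SD. *Kcnc1* ILMN_2717814 lies below both other groups in the dystrophin siRNA arrays, *Kcnc4* ILMN_2771095 is between 10.80 and 10.94 in the untreated arrays and below 10 in all siRNA arrays, and the open points show which probes stay at the background.

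The siRNA target was read first. Of 5 *Dmd* probes, 3 were detected on no array. The brighter of the other 2, ILMN_2718576, had 8.07, 8.32 and 8.52 as lowest, median and highest log2 level in the 7 dystrophin siRNA cultures, 10.03, 10.36 and 10.51 in the 7 GL2 siRNA cultures, and 10.25, 10.05, 10.25 and 10.32 in the 4 untreated cultures. The dystrophin siRNA group lay below both other groups without overlap. The change was -1.90 (SE 0.11, adjusted p = 1.8e-08, limma) against untreated cultures, so that 26.8% of the untreated level remained, and its 95% interval against GL2 siRNA cultures was -2.19 to -1.81 (adjusted p = 4.5e-11, limma). The dimmer probe, ILMN_2418806, gave -0.67 (adjusted p = 0.11, limma) against untreated and -0.58 (adjusted p = 0.039, limma) against GL2 siRNA cultures. The first passed in 3 of 26 other settings and the second in 12 of 26 (adjusted p up to 0.091).

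Promoter sequences are shown for the 4 genes with a detected probe that passed at least 1 test, *Kcnc1* and *Kcnc4*, which were lower in the dystrophin siRNA myotubes than in untreated ones, and *Kcnma1* (by 1 of its 3 probes) and *Kcnn3*, which were higher. They are the 250 bases before the annotated transcription start, from RefSeq on GRCm38.p6, which holds such a sequence for 7 of the 8 genes (all but *Kcnj11*). Each is written 5′ to 3′ on the strand of its gene. Capitals mark E-boxes, the letters CANNTG (N is any base; the pattern reads the same on both strands), which the myogenic factors of the MyoD family bind.
Kcnc1, chr7:46396218-46396467, plus strand: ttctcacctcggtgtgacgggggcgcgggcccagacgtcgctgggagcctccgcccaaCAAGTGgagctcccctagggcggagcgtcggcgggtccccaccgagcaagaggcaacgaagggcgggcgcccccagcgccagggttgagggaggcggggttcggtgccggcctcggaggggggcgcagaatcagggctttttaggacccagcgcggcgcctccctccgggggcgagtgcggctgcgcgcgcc
Kcnc4, chr3:107458899-107459148, minus strand: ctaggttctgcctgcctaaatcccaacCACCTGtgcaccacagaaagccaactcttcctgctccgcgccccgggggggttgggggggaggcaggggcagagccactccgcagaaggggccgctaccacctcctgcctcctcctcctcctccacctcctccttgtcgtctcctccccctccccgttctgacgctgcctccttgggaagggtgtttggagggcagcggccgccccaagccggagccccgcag
Kcnma1, chr14:24004206-24004455, minus strand: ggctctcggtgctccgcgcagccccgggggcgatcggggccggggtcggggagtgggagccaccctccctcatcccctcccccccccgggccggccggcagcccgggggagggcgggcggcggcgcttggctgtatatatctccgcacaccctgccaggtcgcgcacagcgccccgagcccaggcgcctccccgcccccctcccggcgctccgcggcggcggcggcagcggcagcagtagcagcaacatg
Kcnn3, chr3:89519914-89520163, plus strand: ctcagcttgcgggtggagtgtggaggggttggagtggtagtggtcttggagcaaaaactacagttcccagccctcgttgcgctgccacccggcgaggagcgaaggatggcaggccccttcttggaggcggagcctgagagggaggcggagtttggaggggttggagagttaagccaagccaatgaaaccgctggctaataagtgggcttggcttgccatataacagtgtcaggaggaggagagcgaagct

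The *Kcnc1* window held 1 E-box, CAAGTG, whose first base is 192 bases before the start. The *Kcnc4* window held 1, CACCTG, 223 bases before the start, and the windows of *Kcnma1* and *Kcnn3* held none. Of 32851 mouse promoter windows of the same length 66.2% held at least 1 E-box, and 17.2% held CAGGTG or its reverse complement CACCTG. The G and C content was 74.4% for *Kcnc1*, 68% for *Kcnc4*, 79.2% for *Kcnma1* and 58.8% for *Kcnn3*, beside a median of 52.4% over all windows. A match of letters is a description and not a binding site.

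Fast voltage-gated potassium channels of the Shaw family came in 2 genes, *Kcnc1* and *Kcnc4*. Their channels open only at strongly depolarized potentials and close quickly, which shortens the spike. *Kcnc1* was lower in the dystrophin siRNA myotubes than in either control, and *Kcnc4* was lower in both siRNA groups than in untreated myotubes.

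*Kcnc1* was read by ILMN_2717814 on all 18 arrays. Its log2 level was 6.79, 7.58 and 7.82 (lowest, median and highest) in the 7 dystrophin siRNA cultures, 8.49, 8.93 and 9.13 in the 7 GL2 siRNA cultures, and 8.38, 8.12, 8.43 and 8.45 in the 4 untreated cultures. The 3 groups did not overlap, with dystrophin siRNA lowest, untreated between and GL2 siRNA highest. Against GL2 siRNA the change was -1.51 (SE 0.16, 95% interval -1.85 to -1.18, adjusted p = 4.8e-06, limma). Against untreated it was -0.99 (SE 0.19, adjusted p = 0.01, limma), a level of 50.4% of that in untreated cultures, and a fit without the GL2 siRNA arrays gave an adjusted p of 0.054. GL2 siRNA against untreated gave 0.53 (95% interval 0.13 to 0.92, adjusted p = 0.26, limma), which did not pass. The other *Kcnc1* probe, ILMN_1239595, was detected on none of the 18 arrays, so it gives no second reading of the gene.

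*Kcnc4*, whose channel inactivates rapidly, had a bright probe and a dim one. The bright probe, ILMN_2771095, was detected on all 18 arrays. Log2 levels were 8.86, 9.34 and 9.89 (lowest, median and highest) in the dystrophin siRNA cultures, 8.07, 9.13 and 9.53 in the GL2 siRNA cultures, and 10.86, 10.86, 10.80 and 10.94 in the untreated cultures. Every siRNA culture lay below every untreated culture, and the siRNA groups overlapped each other. The change was -1.47 (SE 0.22, adjusted p = 0.0012, limma) with dystrophin siRNA against untreated. It was -1.91 (SE 0.22, adjusted p = 0.00011, limma) with GL2 siRNA against untreated, the 20th smallest p of all probes in that comparison. Dystrophin siRNA against GL2 siRNA gave 0.43 (95% interval 0.04 to 0.82, adjusted p = 0.29, limma). The levels of the 4 untreated cultures had an SD of 0.06, those of the dystrophin siRNA cultures 0.33 and those of the GL2 siRNA cultures 0.49.

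The dim *Kcnc4* probe, ILMN_1242025, was detected on all 4 untreated arrays and on none of the 14 siRNA arrays. Its levels lay between 3.37 and 4.91 in the dystrophin siRNA cultures, between 3.60 and 4.41 in the GL2 siRNA cultures, and between 5.13 and 5.68 in the untreated cultures. Since the siRNA groups were at the background, their level has only an upper bound, taken on each array as the lowest level of a detected probe. The level was at least 1.29-fold lower in both the dystrophin siRNA cultures (adjusted p = 0.0074, limma) and the GL2 siRNA cultures (adjusted p = 0.0065, limma) than in untreated ones. None of the 4 untreated arrays detected it at a detection p under 0.01.

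*Kcna7*, a Shaker-type voltage-gated channel of skeletal muscle and heart, was not well above background on any of the 18 arrays. Its background-level values were between 2.44 and 3.97 in the dystrophin siRNA cultures, 3.54 and 4.48 in the GL2 siRNA cultures, and 3.89 and 4.44 in the untreated cultures. The fit put the dystrophin siRNA group below GL2 siRNA (adjusted p = 0.011, limma) and below untreated (adjusted p = 0.017, limma), and the call against untreated was lost without untreated culture 2 (0.081), without untreated culture 4 (0.086) and with only the compared groups (0.078). No fold is given, because neither group of these comparisons has a measured level.

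The calcium-activated potassium channels were *Kcnma1* and *Kcnn3*. *Kcnma1* encodes the pore of the large-conductance channel, which opens with both voltage and calcium, and *Kcnn3* a small-conductance channel that calcium alone opens and that is known from immature and denervated muscle. Both were higher in the dystrophin siRNA than in the GL2 siRNA myotubes, *Kcnma1* by all 3 of its probes.

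*Kcnma1* ILMN_1244166 was detected on all 18 arrays. Its log2 level was 7.47, 7.88 and 8.13 (lowest, median and highest) in the dystrophin siRNA cultures, 6.58, 7.19 and 7.35 in the GL2 siRNA cultures, and 7.75, 7.18, 7.33 and 7.71 in the untreated cultures. The siRNA groups did not overlap, and the untreated cultures spanned the gap between them. Dystrophin siRNA against GL2 siRNA gave 0.67 (SE 0.14, adjusted p = 0.0067, limma). Against untreated the change was 0.28 (95% interval -0.06 to 0.62, adjusted p = 0.64, limma) with dystrophin siRNA and -0.39 (95% interval -0.73 to -0.04, adjusted p = 0.38, limma) with GL2 siRNA.

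*Kcnma1* ILMN_2501033 was detected in all 7 dystrophin siRNA cultures, 4 of 7 GL2 siRNA cultures and all 4 untreated cultures. The log2 levels were 6.49, 6.86 and 7.33 in the dystrophin siRNA cultures, 4.11, 5.07 and 5.61 in the GL2 siRNA cultures, and 5.97, 6.04, 5.48 and 6.04 in the untreated cultures. The dystrophin siRNA cultures lay above all others. The change was 1.75 (SE 0.20, adjusted p = 1e-05, limma) against GL2 siRNA. Against untreated it was 0.94 (SE 0.23, adjusted p = 0.064, limma), which passed in 6 of 26 other settings, among them normexp background correction (0.0051) and the fit with only the compared groups (0.033). GL2 siRNA against untreated gave -0.81 (95% interval -1.30 to -0.33, adjusted p = 0.13, limma), which did not pass.

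*Kcnma1* ILMN_2723800 was detected in all 7 dystrophin siRNA cultures and on no other array. In log2, it had 5.17, 5.59 and 6.12 in the dystrophin siRNA cultures, and the background-level values were between 2.84 and 4.25 in the GL2 siRNA cultures and between 4.54 and 4.78 in the untreated cultures. The level was at least 1.55-fold higher in the dystrophin siRNA than in the GL2 siRNA cultures (adjusted p = 5.4e-07, limma). It was at least 1.51-fold higher than in untreated cultures (adjusted p = 0.032, limma), a call that was lost when any single untreated array was left out (0.071, 0.097, 0.11 and 0.11) or any single one of dystrophin siRNA arrays 2 to 6 (0.051 to 0.072). GL2 siRNA against untreated passed as well (adjusted p = 0.023, limma), with neither group detected and hence no fold, and that call ended without any 1 untreated array (0.064 to 0.095).

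The sizes of these differences rested on how the background was corrected. Without background correction, the fitted change of dystrophin siRNA against GL2 siRNA was 0.61 instead of 2.14 for ILMN_2723800, 0.72 instead of 1.75 for ILMN_2501033 and 0.44 instead of 0.67 for ILMN_1244166 of *Kcnma1*, with adjusted p-values (limma) of 7.7e-07, 6.4e-07 and 0.0014. The 3 probes thus differed less in their change on the uncorrected scale, and all 3 calls stood. For *Kcnc1* ILMN_2717814 the same setting gave -1.13 instead of -1.51, and for the bright *Kcnc4* probe against untreated -1.36 instead of -1.47.

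**Figure D2:**
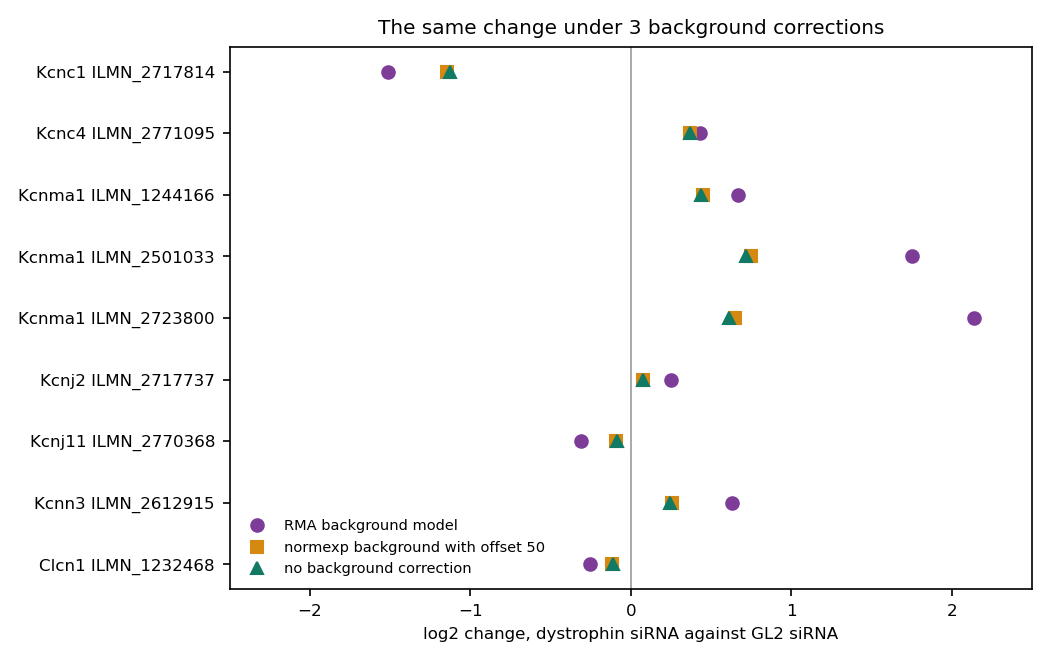
Log2 change of dystrophin siRNA against GL2 siRNA (horizontal axis) for the 9 member probes detected in at least 1 of both groups, after the RMA background model (circles), normexp with an offset of 50 (squares) and no background correction (triangles). The changes of the dim *Kcnma1* probes shrink by the most log2 units, from 2.14 to 0.61 and from 1.75 to 0.72, and no probe changes its direction.

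*Kcnn3* ILMN_2612915 was detected on all 18 arrays, but on only 1 of them, a dystrophin siRNA array, at a detection p under 0.01. Log2 levels of 5.63, 5.96 and 6.85 (lowest, median and highest) were read in the dystrophin siRNA cultures, 5.14, 5.39 and 5.68 in the GL2 siRNA cultures, and 5.39, 5.15, 5.14 and 5.27 in the untreated cultures. The dystrophin siRNA cultures lay above every untreated culture and overlapped the GL2 siRNA cultures. The change was 0.63 (SE 0.15, adjusted p = 0.016, limma) against GL2 siRNA and 0.79 (SE 0.17, adjusted p = 0.03, limma) against untreated, and GL2 siRNA against untreated gave 0.16 (95% interval -0.20 to 0.52, adjusted p = 0.8, limma). The call against untreated ended without any 1 untreated array (0.061 to 0.12), without dystrophin siRNA array 2 (0.055) and with only the compared groups (0.12), and without background correction the changes were 0.24 and 0.29.

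**Figure D3:**
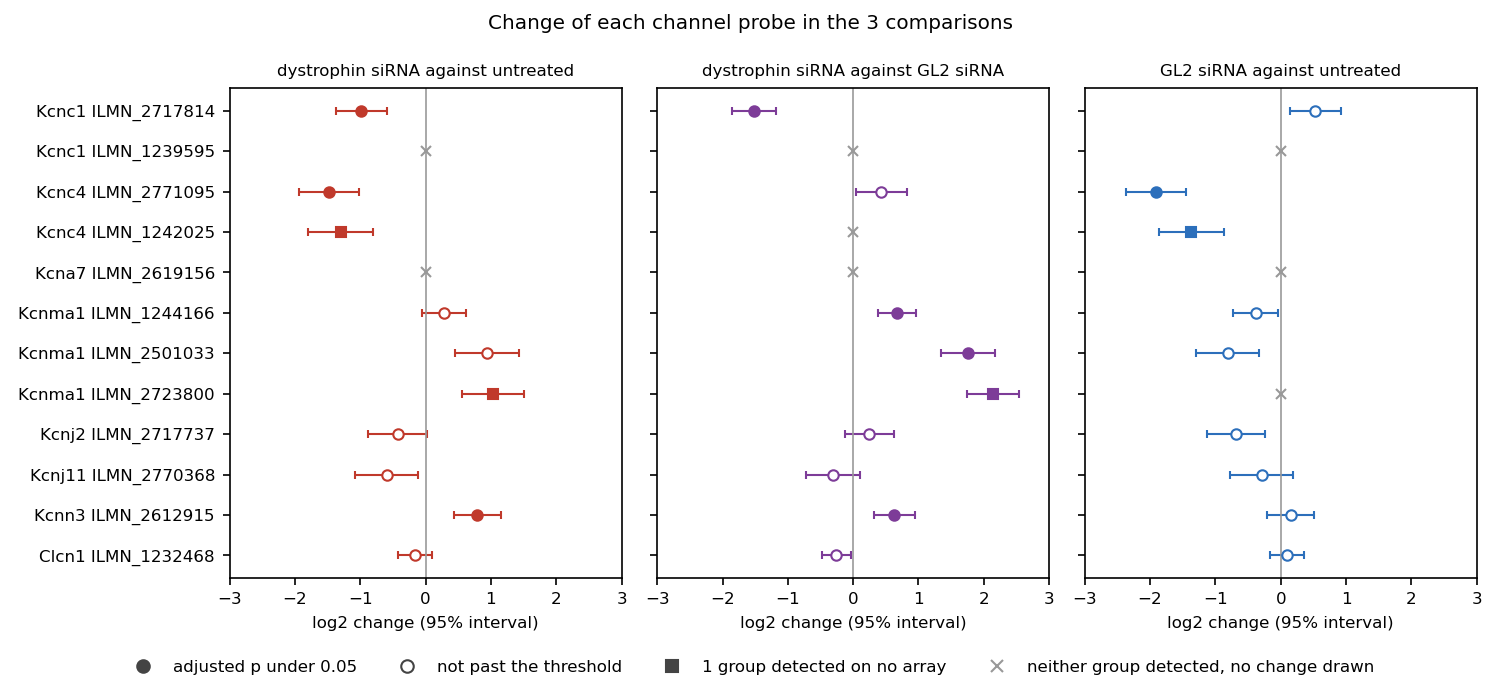
Log2 change (horizontal axis) with its 95% interval for each of the 12 member probes in 3 comparisons, filled where the adjusted p was under 0.05. Squares are fitted changes of probes for which 1 of both groups was at the background, given in the text as bounds, and crosses mark probes detected in neither group. *Kcnc4* is lower in both siRNA groups against untreated (-1.47 and -1.91), and *Kcnc1* (-1.51) and *Kcnma1* (0.67, 1.75 and 2.14) differ between the siRNAs.

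The inward rectifiers were *Kcnj2*, whose channel sets the resting potential of muscle, and *Kcnj11*, the pore of the channel that closes when ATP is high. Neither passed a test. *Kcnj2* ILMN_2717737 was detected in 7 of 7 dystrophin siRNA, 5 of 7 GL2 siRNA and 4 of 4 untreated cultures. Its log2 level was 5.31, 5.48 and 6.01 (lowest, median and highest) in the dystrophin siRNA cultures, 4.62, 5.43 and 5.98 in the GL2 siRNA cultures, and 6.21, 6.13, 6.18 and 5.54 in the untreated cultures. Of the untreated cultures 3 lay above every siRNA culture, and the fourth lay among them. The change against untreated was -0.43 (95% interval -0.88 to 0.02, adjusted p = 0.56, limma) with dystrophin siRNA and -0.68 (95% interval -1.12 to -0.23, adjusted p = 0.19, limma) with GL2 siRNA, and between the siRNAs 0.25 (95% interval -0.13 to 0.63, adjusted p = 0.64, limma).

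*Kcnj11* ILMN_2770368 was detected on 2 arrays of each group. The levels were 4.11, 4.62 and 5.03 in the dystrophin siRNA cultures, 4.51, 4.95 and 5.57 in the GL2 siRNA cultures, and 5.28, 5.95, 4.78 and 4.99 in the untreated cultures. The groups overlapped. The change was -0.60 (95% interval -1.08 to -0.11, adjusted p = 0.37, limma) with dystrophin siRNA against untreated, -0.31 (95% interval -0.72 to 0.10) against GL2 siRNA, and -0.29 (95% interval -0.77 to 0.19) with GL2 siRNA against untreated. A change of *Kcnj11* was not detectable at this signal.

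*Clcn1* encodes the chloride channel that carries most of the resting conductance of mature fibres, and whose loss causes myotonia. Its probe, ILMN_1232468, was detected on all 18 arrays, on 4 of them at a detection p under 0.01. Its log2 level was 5.77, 5.98 and 6.36 (lowest, median and highest) in the dystrophin siRNA cultures, 6.09, 6.29 and 6.60 in the GL2 siRNA cultures, and 6.39, 5.95, 6.09 and 6.32 in the untreated cultures. The groups overlapped. The change was -0.16 (95% interval -0.42 to 0.10, adjusted p = 0.78, limma) with dystrophin siRNA against untreated, -0.26 (95% interval -0.48 to -0.03, adjusted p = 0.26, limma) against GL2 siRNA, and 0.10 (95% interval -0.17 to 0.36, adjusted p = 0.84, limma) with GL2 siRNA against untreated. These are the narrowest intervals among the members.

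Once each group's mean was taken off, the arrays formed 4 clusters, each with arrays of all 3 groups, and cluster 1 held array 1 of each group. The clusters were found from these arrays and are not known to be the 4 occasions. Of the variance within groups, 61.8% lay between the clusters for *Kcnc1* ILMN_2717814 and 43.2% for *Kcnc4* ILMN_2771095, against 5.06% to 34.8% for the other member probes and a median of 40.9% over all probes detected on at least 4 arrays. Where the compared groups did not overlap, the direction inside each cluster was fixed by that, and only the sizes are given. The difference of dystrophin siRNA against GL2 siRNA ran over the 4 clusters from -1.82 to -1.07 for *Kcnc1* and from 0.32 to 0.81 for *Kcnma1* ILMN_1244166. *Kcnc4* ILMN_2771095 against untreated ran from -1.83 to -0.97 with dystrophin siRNA and from -2.63 to -1.32 with GL2 siRNA. The groups overlapped for *Kcnn3* between the siRNAs, where dystrophin siRNA was higher in 4 of 4 clusters (0.31 to 0.84), and for *Kcnma1* ILMN_1244166 against untreated, where it was higher in 2 clusters and lower in 2.

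**Figure D4:**
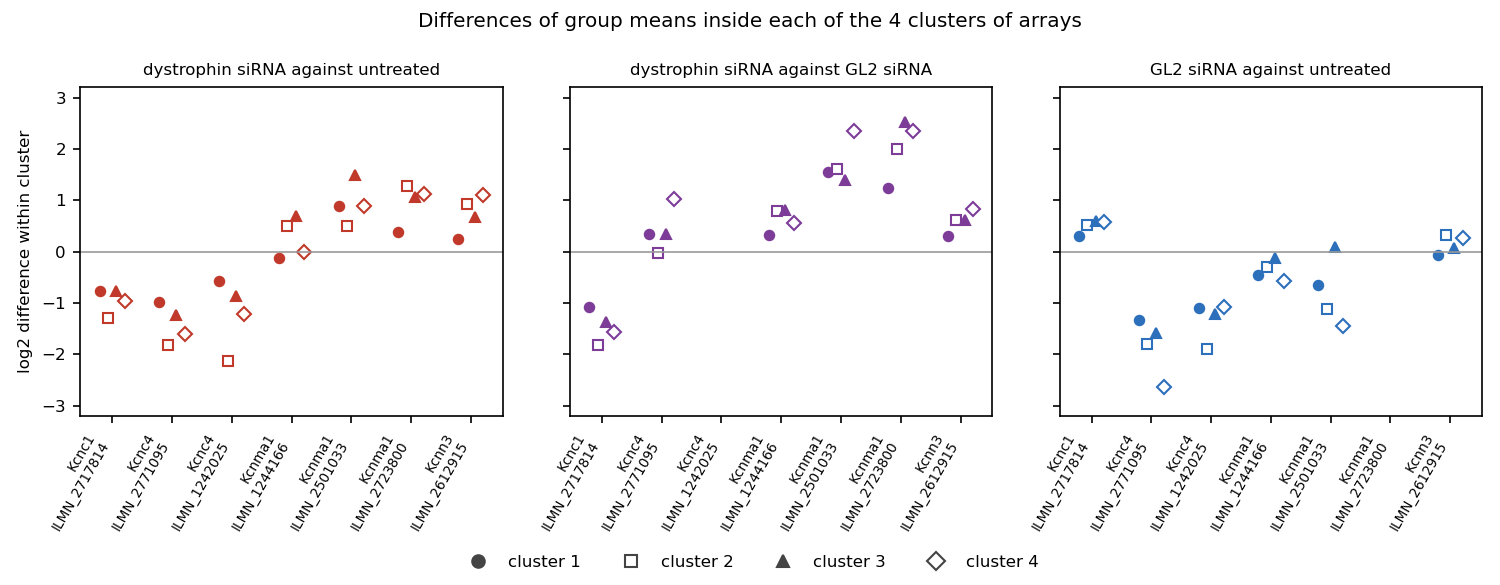
Difference of group means on the log2 scale (vertical axis) inside each of the 4 clusters of arrays, for the 7 member probes with a signal that passed at least 1 test. Comparisons in which neither group was detected are left blank. The spread of the 4 points shows how far the size varied, from -1.82 to -1.07 for *Kcnc1* between the siRNAs. The sign could differ between clusters only where groups overlap, as for *Kcnn3* between the siRNAs (4 points above 0) and *Kcnma1* ILMN_1244166 with dystrophin siRNA against untreated (2 above and 2 below).

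Markers of other cells were read beside these results. Against untreated myotubes no gene of the lists for myotubes, fibroblasts, smooth muscle, neurons, Schwann cells, endothelium, macrophages or adipocytes passed the limma test in either siRNA group, and of their 59 measured genes 10 had an unadjusted p under 0.05 with dystrophin siRNA and 12 with GL2 siRNA. Of all 46632 probes, 4365 and 5155 did. With the clusters as a block, *Ckm*, the muscle creatine kinase (adjusted p = 0.045), and *Myog*, a myogenic factor (0.016), passed with dystrophin siRNA, and *Ckm* (0.0031) and *Col1a2*, a fibroblast collagen (0.029), with GL2 siRNA (limma). *Ckm* averaged 12.20 in dystrophin siRNA, 13.12 in GL2 siRNA and 12.61 in untreated cultures, the same order as *Kcnc1*. The means of *Ryr1*, *Tnnt3* and *Cav3* had this order too, and those of the other measured myotube genes did not. In dystrophin siRNA against GL2 siRNA, 8 of the 59 genes passed. Of all probes 3.76% did, and of those detected on at least 4 arrays 8.27%. Of 11 measured myotube genes 4 passed as lower (*Ckm*, *Ryr1*, *Tnnt3* and *Cav3*), where 2.16% of all probes did, at changes of -0.92 to -0.30. *Myog* went the other way, at 0.35 (adjusted p = 0.064, and 0.014 with the block, limma). Of the rest, *Actc1* (0.13), *Myh8* (0.08), *Tnnc2* (0.04) and *Acta1* (0.02) were higher, *Mymk* (-0.31) and *Des* (-0.15) were lower, and none passed. Of 8 genes of smooth muscle, the cell type in which *Kcnma1* is abundant, *Tagln* was higher (0.66) with dystrophin siRNA than with GL2 siRNA. *Lmod1* passed as lower (adjusted p = 0.044, limma). It has no exact fold, being detected in 0 of 7 dystrophin siRNA and 4 of 7 GL2 siRNA cultures. *Mylk* (0.10) and *Acta2* (0.09) were higher, *Myh11* (-0.27), *Smtn* (-0.21) and *Des* (-0.15, also on the myotube list) were lower, and none of these passed. *Cnn1* was detected on no array. The summed level was 44710 to 55326 in dystrophin siRNA, 45380 to 51239 in GL2 siRNA and 47931 to 51280 in untreated cultures on the linear scale. Most of this sum is *Acta2*, at a mean log2 level of 15.3 in dystrophin siRNA cultures beside 12.2 for the next, *Smtn*. Of 8 neuronal genes none passed between the siRNAs, 1 had an unadjusted p under 0.05 (6434 of all 46632 probes did), and 4 were detected on no array. The summed adipocyte level was 4667 to 5984 in dystrophin siRNA, 4934 to 6787 in GL2 siRNA and 6113 to 7289 in untreated cultures, so that GL2 siRNA overlapped both others. Most of this sum is *Lpl*, at a mean log2 level of 12.07 in dystrophin siRNA cultures beside 8.60 for the next, *Adipoq*. With dystrophin siRNA against untreated, *Lpl* (-0.42) and *Adipoq* (-0.33) were lower, *Cebpa* (0.17) and *Pparg* (0.12) were higher, and none passed. *Plin1* was detected on 1 array and *Fabp4* on none. *Pmp22* of the Schwann cell list (0.39) and *Vwf* of the endothelial list (0.68) were higher with dystrophin siRNA than with GL2 siRNA. No other measured gene of these lists passed there. In the Schwann cell list *Sox10* (0.17) and *Mbp* (0.13) were higher, and *S100b* and *Gfap* were detected on no array. In the endothelial list *Tek* (0.02) and *Pecam1* (0.01) were higher and *Cdh5* (-0.18), *Kdr* (-0.05) and *Emcn* (-0.02) were lower. *Tie1* was detected on no array. The part of these cells in the channel results was not tested.

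Channels outside the 8 genes were taken by name, as every other symbol that begins with Kcn or Clcn or with Scn and a digit. They came to 169 probes of 91 genes, of which 54 probes were detected on at least 4 arrays. In dystrophin siRNA against untreated myotubes 2 of the 169 passed (1.18%), in GL2 siRNA against untreated 6 (3.55%) and in dystrophin siRNA against GL2 siRNA 8 (4.73%), beside the backgrounds above. Of the 54 probes detected on at least 4 arrays, 3.70%, 11.1% and 13.0% passed, where 2.01%, 1.65% and 8.27% of all such probes did. The median change of the 169 probes was 0.01, -0.02 and 0.01. None of 13 probes of other chloride channel genes and none of 11 probes of other calcium- or sodium-activated potassium channel genes passed in any comparison. At an unadjusted p under 0.05 the first had 0 in each comparison and the second had 2, 1 and 2, where 4365, 5155 and 6434 of all 46632 probes did. With the clusters as a block, 2 of these probes passed, named here after their values were seen. *Kcnn1* ILMN_2664556, detected in 2 of 7 dystrophin siRNA and 7 of 7 GL2 siRNA cultures, gave -1.02 between them (adjusted p = 0.057, and 0.01 with the block, limma). *Kcnn4* ILMN_2765032, detected on all 18 arrays, gave -0.64 with dystrophin siRNA against untreated (adjusted p = 0.26, and 0.032 with the block, limma).

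The sodium channel subunits had 22 probes of 10 genes, and *Scn3b*, an auxiliary beta subunit, passed with 3 probes in dystrophin siRNA against GL2 siRNA. Its probe ILMN_1215136, detected on all arrays, had 7.42, 7.87 and 8.13 (lowest, median and highest) in the dystrophin siRNA cultures, 6.14, 6.82 and 7.30 in the GL2 siRNA cultures, and a mean of 7.13 ± 0.44 (SD, n = 4) in the untreated cultures. It was higher by 1.17 (SE 0.18, adjusted p = 0.00033, limma) with dystrophin siRNA than with GL2 siRNA, without overlap, and 0.74 (95% interval 0.31 to 1.18, adjusted p = 0.13, limma) against untreated. Probe ILMN_1227604 was detected in 6 of 7 dystrophin siRNA cultures and nowhere else. The fit put these cultures above GL2 siRNA (adjusted p = 5.7e-06, limma) and above untreated cultures (adjusted p = 0.034, limma). No fold or bound is given, because not every culture of the higher group detected the probe. The call against untreated held in 17 of 26 other settings (up to 0.14) and ended without any 1 untreated array. The third, ILMN_1255633, was detected in 3 dystrophin siRNA cultures only, so it has no fold either. It was higher with dystrophin siRNA than with GL2 siRNA (adjusted p = 0.039, limma) and passed in 16 of 25 other settings. *Scn10a* ILMN_1242354, a pore subunit known from sensory neurons, was detected in 5 of 7 GL2 siRNA cultures and on no other array. Without a fold for the same reason, it was lower in dystrophin siRNA than in GL2 siRNA cultures (adjusted p = 3.2e-05, limma). It was higher in GL2 siRNA than in untreated cultures (adjusted p = 0.0099, limma), a call lost without untreated array 1 (0.056) or 4 (0.062). *Scn3a*, another pore subunit, fell by 0.75 with GL2 siRNA against untreated (adjusted p = 0.0041, limma). With dystrophin siRNA against untreated it gave -0.52 (adjusted p = 0.049, limma), which passed in only 9 of 26 other settings (up to 0.17) and in none that left out an untreated array.

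Among the muscle channels and partners listed by name whatever they did, *Clcn2*, *Clcn3*, *Kcnq1*, *Kcnj12*, *Kcnn4*, *Kcnmb1*, *Kcnk3* and *Kcne3* had probes, and only *Kcnj12* passed a test. *Kcnj12*, an inward rectifier close to *Kcnj2*, had log2 levels of 8.14 ± 0.34 in dystrophin siRNA (SD, n = 7), 8.93 ± 0.20 in GL2 siRNA (SD, n = 7) and 7.70 ± 0.21 in untreated cultures (SD, n = 4). It was higher by 1.23 with GL2 siRNA than untreated (adjusted p = 0.00043, limma) and fell by 0.79 with dystrophin siRNA against GL2 siRNA (adjusted p = 0.0014, limma), and dystrophin siRNA against untreated gave 0.44 (adjusted p = 0.33, limma). *Kcnmb1*, the beta subunit that partners *Kcnma1* in smooth muscle, was detected on none of the 18 arrays. *Kcne1l* and *Kcnk1*, an accessory subunit and a two-pore channel, were both lower with GL2 siRNA than untreated (-1.09 and -0.70, adjusted p = 0.00026 and 0.031, limma), and higher with dystrophin siRNA than with GL2 siRNA (0.91 and 0.83, adjusted p = 5.1e-05 and 0.00038, limma). The *Kcnk1* call against untreated held in 19 of 26 other settings and was lost without untreated array 2, 3 or 4 (0.087, 0.14 and 0.12). *Kcnf1*, a modulatory subunit, fell by 0.97 with GL2 siRNA against untreated (adjusted p = 0.044, limma), a call that held in 13 of 26 other settings and was lost without untreated array 2, 3 or 4 (0.13, 0.17 and 0.13). *Kcnc2*, a relative of *Kcnc1* detected in 6 of 7 dystrophin siRNA, 1 of 7 GL2 siRNA and 2 of 4 untreated cultures, was higher with dystrophin siRNA than with GL2 siRNA (adjusted p = 0.02, limma). Most GL2 siRNA cultures were at the background, and the fitted change was 0.73 with and 0.20 without background correction.

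The probes of other genes most like each member over the 18 arrays were found by Pearson's r among probes detected on at least 4 arrays, as a description, since the arrays share groups and mixtures. For *Kcnc1* they were 2310002L09Rik, *Arpp21* and *Perm1* (r = 0.96 each, and 0.72 to 0.76 on deviations from the group means). For *Kcnc4* they were *Ltbp1* (0.91), *Cpt1b* (0.89) and *Nudt7* (0.89), and for *Kcnma1* ILMN_1244166 *Capn6* (0.89), *Mapt* (0.88) and *Arhgap29* (0.87). *Kcnn3* was most like *Dnajc16* (0.88), *Msi2* (0.87) and *Abca5* (0.86). The likeness was lower for *Clcn1*, with *Ppp1r14a* first (0.80), and lowest for *Kcnj11*, with *Wdr44* first (0.64).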

How the data were processed

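For each probe the deposited table held an intensity, the mean over its beads before any correction, and a detection p-value, both from BeadStudio. The authors also deposited normalized intensity values, made by background correction after the RMA model, log2 transformation and quantile normalization with lumi and returned to a linear scale (submitters' notes name lumi, with no version). Here the same steps were run on the bead signals in R 4.3.3, and the log2 levels differed from the authors' by 0.0025 in the median and by at most 0.022. All 18 arrays of 3 groups entered 1 limma 3.58.1 fit (lmFit, eBayes) without a block or a filter, with the Benjamini-Hochberg adjustment over 46632 probes. The fit was tested on simulated data with independent noise and with changes planted in probes detected on all 18 arrays. That simulation covers neither the clusters of arrays nor changes of probes near the background.

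Of the probes, 29976 had 1 gene symbol, 10 several and 16646 none, and the genes named are the members, the called or listed channels found by name, and the most alike probes. The members and lists were chosen with earlier results of these data known. No label pairs the siRNA cultures. For all 7 replicate numbers the deviations of the dystrophin and GL2 siRNA arrays correlated (0.35 to 0.51), and for 6 of 7 the array of the same number was the most alike. These arrays of the same number also shared a cluster. The clusters were made from the same deviations, so they give no separate evidence on a pairing, which the correlations alone do not show. The number of arrays limits the precision. Bounds use the lowest detected level of each array. They are given only where every array of the higher group detected the probe, and the p beside a bound tests the fitted change. Alternatives were the authors' values, normexp (offset 50) and no background correction, median centring, a filter on dim probes (detection on at least 4 arrays), only the compared groups, 2 kinds of block, each array left out, and a detection p of 0.01.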

Additional observations from a re-analysis of the deposited data

Results flagged for a closer look

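Of 42 groups of probe levels tested (the 12 member probes and 2 *Dmd* probes in 3 groups each), 4 had a culture far from the others of its group, where chance gives about 1 in 20. Untreated culture 3 was low for *Kcnma1* ILMN_2501033, at a log2 level of 5.48 against 5.97 to 6.04 in the other 3. Untreated culture 4 was low for *Kcnj2* ILMN_2717737, at 5.54 against 6.13 to 6.21. Untreated culture 1 was high for *Kcnma1* ILMN_2723800, at 4.78 against 4.54 to 4.58, and dystrophin siRNA culture 7 was high for *Kcnc1* ILMN_1239595, at 3.48 against 2.70 to 3.02, both below the detection limit.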

How the results depend on the processing

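Of 18 results for members and 2 *Dmd* probes that passed, 12 passed in each of the other settings run, among them all 6 member calls of dystrophin siRNA against GL2 siRNA (25 settings for *Kcna7*, which the filter on dim probes removes, and 26 for the rest). The other 6 are named in the report, *Dmd* ILMN_2418806 between the siRNAs among them. No called change reversed. Without 1 array the uncalled change of *Kcnc1* ILMN_1239595 with GL2 siRNA against untreated ran from -0.48 to 0.072, and that of *Kcnc4* ILMN_1242025 between the siRNAs from -0.069 to 0.19. Of 16 calls of other channel probes, tried after seeing the data, 10 passed throughout; *Scn3a*, *Scn3b* ILMN_1227604, *Kcnf1*, *Kcnk1* and *Scn10a* lost calls against untreated and *Scn3b* ILMN_1255633 one between the siRNAs.

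With each array left out, member calls against untreated were 3 to 7 for dystrophin siRNA (3 without untreated array 2 or 4), calls among all 181 channel probes, members included, 3 to 8 (8 with all arrays) for dystrophin siRNA and 5 to 9 (9) for GL2 siRNA, and calls over all probes 247 to 465 (423) and 147 to 377 (342). Calls over all probes against untreated were, for dystrophin and GL2 siRNA, 739 and 839 with normexp, 749 and 854 without background correction, 737 and 811 after the filter on dim probes, 267 and 217 with only the compared groups, and 698 and 973 with the clusters as a block. Between the siRNAs they were 1752 in the report, 2636 without background correction, 2713 after the filter and 2735 with the clusters as a block. Calls among the 181 channel probes with dystrophin siRNA against untreated were 5 with only the compared groups and 13 with the clusters as a block.

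With the replicate block the member calls were 6 with dystrophin siRNA against untreated, 2 with GL2 siRNA against untreated and 6 between the siRNAs, where it changed no member call. Against untreated the arrays of the 4 shared numbers correlated little (-0.06 to 0.22 and -0.08 to 0.28), and there the block lost *Kcnn3* (0.097) and *Kcnma1* ILMN_2723800 (0.11 with GL2 siRNA) and gained *Kcnma1* ILMN_2501033 (0.022). Probes near the background, as most members are, have changes whose size depends on its correction.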
